A study of Rattus norvegicus with 8 samples.

Results

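The junction genes examined here are 10 genes of the contacts between endothelial cells: Cdh5, Pecam1, Cldn5, Esam, Tjp1, Ocln, F11r, Jam2, Ctnnb1 and Ptprb. They were taken as a fixed list of symbols, not by a cut on their measured values, though earlier results of these data were known. Every array probe whose accession belongs to a listed symbol was kept. Of the 10 genes 9 had a probe matched, with 10 probes in all (2 for Tjp1) out of 30367 non-control probes on the array. No probe was matched to Ptprb, which was not analysed here. All 10 probes were well above background on all 8 arrays and none of their spots was saturated or flagged, so each of them entered the test, among 21652 probes tested in all.

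The RNA came from Sprague-Dawley rats aged 8 to 10 weeks. The control group of 4 rats had been injected with saline, and the other group of 4 rats with monocrotaline (60 mg/kg, under the skin). Lungs were taken after 5 days and digested with collagenase. Endothelial cells were then captured on beads coated with an antibody against CD31, the product of Pecam1, and lysed without culture. Monocrotaline is a plant alkaloid that becomes a reactive pyrrole in the liver, injures the lung vessels and is used to model pulmonary arterial hypertension. CD31 is also found on platelets and some leukocytes, so the preparation is a selection and not a pure cell type. In such samples fewer cells of a type and less RNA per cell cannot be told apart. Each of the 8 rats gave 1 array read in 1 colour (Cy3), and the number of arrays limits the precision. The share of spots well above background ran from 70.8% to 77.7%. The arrays differed in brightness: the 75th percentile of the processed signal was 1042 on saline replicate 2 and 1596 to 2196 on the other arrays. A scaled log2 signal below is the log2 of a probe's processed signal minus that percentile, and levels of different probes are not compared. The saline arrays lay in slide row 1 and the monocrotaline arrays in slide row 2, so slide row and group cannot be told apart.

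Endothelial cells seal the vessel wall with intermingled adherens and tight junctions. In adherens junctions the cadherin VE-cadherin (Cdh5) binds its like on the next cell, and its tail holds beta-catenin (Ctnnb1), which links it to the actin skeleton, while the phosphatase VE-PTP (Ptprb) keeps the complex dephosphorylated. In tight junctions claudin-5 (Cldn5) and occludin (Ocln) span the membrane, the immunoglobulin-type adhesion molecules JAM-A (F11r), JAM-B (Jam2) and ESAM (Esam) lie beside them, and the scaffold ZO-1 (Tjp1) ties them to the cytoskeleton. Loss or loosening of these contacts makes lung vessels leak.

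The sequences upstream of Cldn5 and F11r are shown because these probes had the lowest p-values among the junction probes, before adjustment. They are the 250 bases before the start of the gene, read 5′ to 3′ on the gene's strand, from RefSeq's table for GRCr8. Capitals mark the Snail-type E-box (CAGGTG, or CACCTG on the other strand), bound by the Snail repressors that are known to act on tight junction genes in epithelia.
Cldn5: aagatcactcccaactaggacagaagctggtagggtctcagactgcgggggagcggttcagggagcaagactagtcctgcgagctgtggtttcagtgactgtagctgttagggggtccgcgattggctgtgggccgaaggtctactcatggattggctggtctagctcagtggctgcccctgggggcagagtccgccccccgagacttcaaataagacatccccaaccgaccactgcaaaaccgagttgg
F11r: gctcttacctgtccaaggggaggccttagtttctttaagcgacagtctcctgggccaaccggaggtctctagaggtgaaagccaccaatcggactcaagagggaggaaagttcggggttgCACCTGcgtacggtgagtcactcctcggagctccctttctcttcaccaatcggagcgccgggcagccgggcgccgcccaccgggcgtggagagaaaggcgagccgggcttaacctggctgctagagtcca
The Cldn5 stretch is chr11:95718599-95718848 on the minus strand and the F11r stretch is chr13:86405979-86406228 on the plus strand. The E-box letters occur 1 time upstream of F11r, 124 bases from the start, and are not in the Cldn5 window. Of 33469 promoter windows of the same length 15.9% hold them on either strand. A GC box (GGGCGG or CCGCCC), held by 30.5% of all windows, stands 52 bases from the start in both. The ETS core with its flank (GGAAG or CTTCC), held by 63.3% of all windows, is in neither. None of these matches overlaps another, and a match of letters is a description and not evidence of binding. The table’s windows for Tjp1, Ocln, Jam2 and Ctnnb1 begin at starts inside the bounds of the gene and are not shown.

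After monocrotaline every junction probe had a lower mean than after saline, by 0.02 to 0.81 on the log2 scale, but 0 of 10 passed the test over all probes (limma, Benjamini-Hochberg adjusted p under 0.05). Of all 21652 probes 1.42% passed, 294 higher (1.36%) and 14 lower (0.0647%). The 294 and 14 became 14 and 0 without saline replicate 1 and lay between 74 and 316 and between 1 and 108 when another array was left out. At an unadjusted p under 0.05, 4 of the 10 junction probes were lower (Cldn5, F11r, Ocln and Esam) and 0 higher, against 7.08% of all probes lower and 6.72% higher. The log2 fold change was below 0 for 10 of 10 junction probes and for 53.7% of all probes. Over the 9 genes its median was -0.47, against -0.02 for all probes tested.

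**Figure D1:**
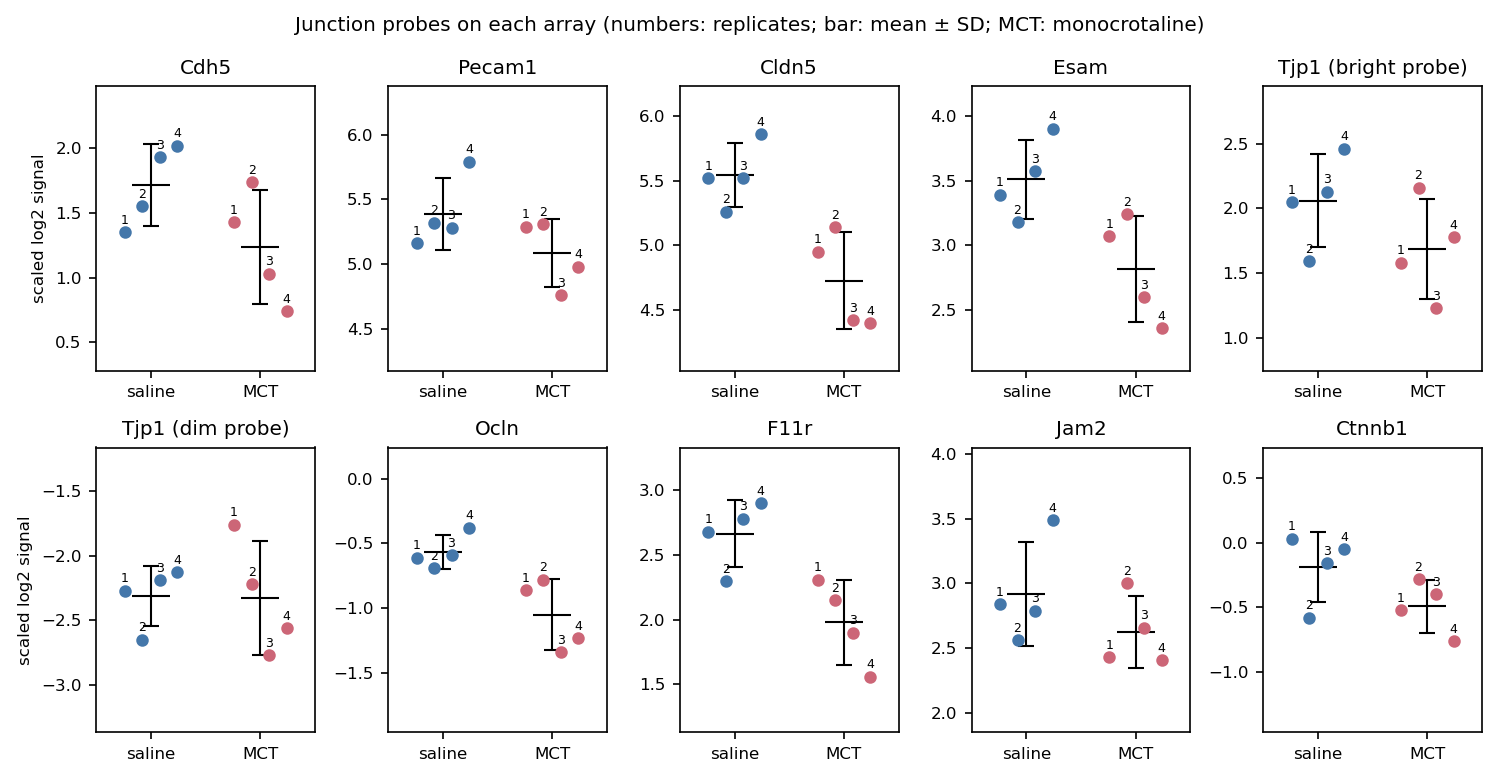
Scaled log2 signal (vertical axis, the same span of 2.2 log2 units in every panel) of the 10 junction probes on 4 saline and 4 monocrotaline (MCT) arrays. Each numbered point is the array of that replicate, and bars give the mean ± SD. The groups are apart for Cldn5 and Ocln and overlap for the other 8 probes.

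Cldn5, the main claudin of endothelial tight junctions, showed the largest difference. Its scaled log2 signal was 5.52, 5.26, 5.52 and 5.86 on saline replicates 1 to 4 and 4.95, 5.14, 4.42 and 4.40 on monocrotaline replicates 1 to 4. All 4 monocrotaline arrays lay below all 4 saline arrays, with replicates 3 and 4 lowest and replicate 2 close to the lowest saline array. The group means were 5.54 ± 0.24 and 4.73 ± 0.38 (SD, n = 4 each). The log2 fold change was -0.81 ± 0.21 (SE, 95% interval -1.30 to -0.32, limma adjusted p = 0.141), a level 1.76-fold lower. Its unadjusted p of 0.00472 in limma put it at rank 724 of all probes.

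Ocln, the tight junction protein occludin that epithelia also carry, was the other probe whose groups did not overlap. It gave -0.61, -0.69, -0.59 and -0.38 in the saline group and -0.86, -0.78, -1.34 and -1.23 in the monocrotaline group, in order of replicate. The saline arrays spanned little, with an SD of 0.13 against 0.28 in the monocrotaline group, where replicates 3 and 4 again lay lowest. The log2 fold change was -0.48 ± 0.16 (SE, 95% interval -0.86 to -0.11, limma adjusted p = 0.249). Groups that did not overlap were seen for 2 of 10 junction probes, both lower, against 3.87% of all probes lower and 8.54% in either direction. A two-sided exact permutation test gave p = 0.0286 for Cldn5 and for Ocln, the smallest that 4 against 4 arrays allow.

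The adhesion molecules of the JAM and ESAM group also had lower means after monocrotaline, and differences between these genes were not tested. F11r (JAM-A, on endothelium, epithelium, platelets and leukocytes) read 2.68, 2.30, 2.78 and 2.90 after saline and 2.31, 2.15, 1.90 and 1.56 after monocrotaline. Only monocrotaline replicate 1 reached the range of the saline arrays, just above saline replicate 2. Its log2 fold change was -0.68 ± 0.20 (SE, 95% interval -1.15 to -0.22, limma adjusted p = 0.185). Esam, which endothelium and platelets share, read 3.39, 3.18, 3.57 and 3.90 in the saline samples and 3.07, 3.24, 2.60 and 2.36 in the monocrotaline samples. Here monocrotaline replicate 2 lay above saline replicate 2, and the log2 fold change was -0.69 ± 0.24 (SE, 95% interval -1.24 to -0.15, limma adjusted p = 0.259). Jam2 (JAM-B) read 2.84, 2.56, 2.79 and 3.49 against 2.43, 3.00, 2.66 and 2.41. Its groups overlapped widely and its high saline value came from replicate 4 alone. The log2 fold change of Jam2 was -0.30 ± 0.23 (SE, 95% interval -0.82 to 0.22, limma adjusted p = 0.598), and -0.11 without saline replicate 4.

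The adherens junction genes had lower means after monocrotaline, with overlapping groups. Cdh5, the cadherin of the complex, read 1.35, 1.55, 1.93 and 2.02 in the saline group and 1.43, 1.74, 1.03 and 0.74 in the monocrotaline group. Monocrotaline replicates 1 and 2 lay among the saline arrays, and replicates 3 and 4 below them all. Its log2 fold change was -0.47 ± 0.25 (SE, 95% interval -1.04 to 0.09, limma adjusted p = 0.431), and -0.31 without monocrotaline replicate 4. Ctnnb1, its partner beta-catenin, which also acts in Wnt signalling in most cell types, read 0.03, -0.58, -0.16 and -0.05 against -0.52, -0.28, -0.40 and -0.76. Saline replicate 2 was as low as the monocrotaline arrays, and the log2 fold change was -0.30 ± 0.17 (SE, 95% interval -0.70 to 0.09, limma adjusted p = 0.469). Pecam1, the antigen used for capture and an adhesion molecule along the whole cell border, read 5.16, 5.32, 5.28 and 5.79 in saline and 5.29, 5.31, 4.76 and 4.98 in monocrotaline samples. Its groups overlapped, and its log2 fold change was -0.30 ± 0.19 (SE, 95% interval -0.74 to 0.13, limma adjusted p = 0.51). It was -0.17 without saline replicate 4 and -0.20 without monocrotaline replicate 3. The intervals of Cdh5, Pecam1, Jam2 and Ctnnb1 include 0 and do not show equal levels.

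The 2 probes of Tjp1, the scaffold ZO-1, gave different values. The bright probe, with 10 spots per array, read 2.05, 1.59, 2.13 and 2.46 against 1.58, 2.16, 1.23 and 1.78, a log2 fold change of -0.37 ± 0.24 (SE, limma adjusted p = 0.537). That value was -0.24 without saline replicate 4 and -0.22 without monocrotaline replicate 3. The dim probe, with 2 spots, read -2.27, -2.65, -2.19 and -2.13 against -1.76, -2.22, -2.77 and -2.56, with a log2 fold change of -0.02 ± 0.23 (SE, limma adjusted p = 0.982). They parted most on monocrotaline replicate 1, where the bright probe stood at -0.48 and the dim probe at 0.55 from their own saline means. Its spots there had processed signals of 233 and 710, against 343 and 377 on saline replicate 1. The SD between spots of the bright probe was at most 0.0684 within any array.

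The spread between rats was mostly wider than the spread between spots. For the other 8 probes, with 2 spots each, the median SD between spots was 0.0144 (Esam) to 0.101 (Jam2) on the log2 scale, while the SD between rats of a group was 0.13 to 0.44. The junction probes followed the same arrays. Saline replicate 4 was the highest of the 8 arrays for 8 of 10 probes. Monocrotaline replicate 4 was the lowest for 6 and monocrotaline replicate 3 for the other 4. The mean over the 9 genes, by the brighter Tjp1 probe, stood at -0.37, -0.15, -0.69 and -0.76 from the saline mean on monocrotaline replicates 1 to 4. On the saline replicates it stood at -0.07, -0.28, 0.02 and 0.33, so monocrotaline replicate 2 lay within the saline range.

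**Figure D2:**
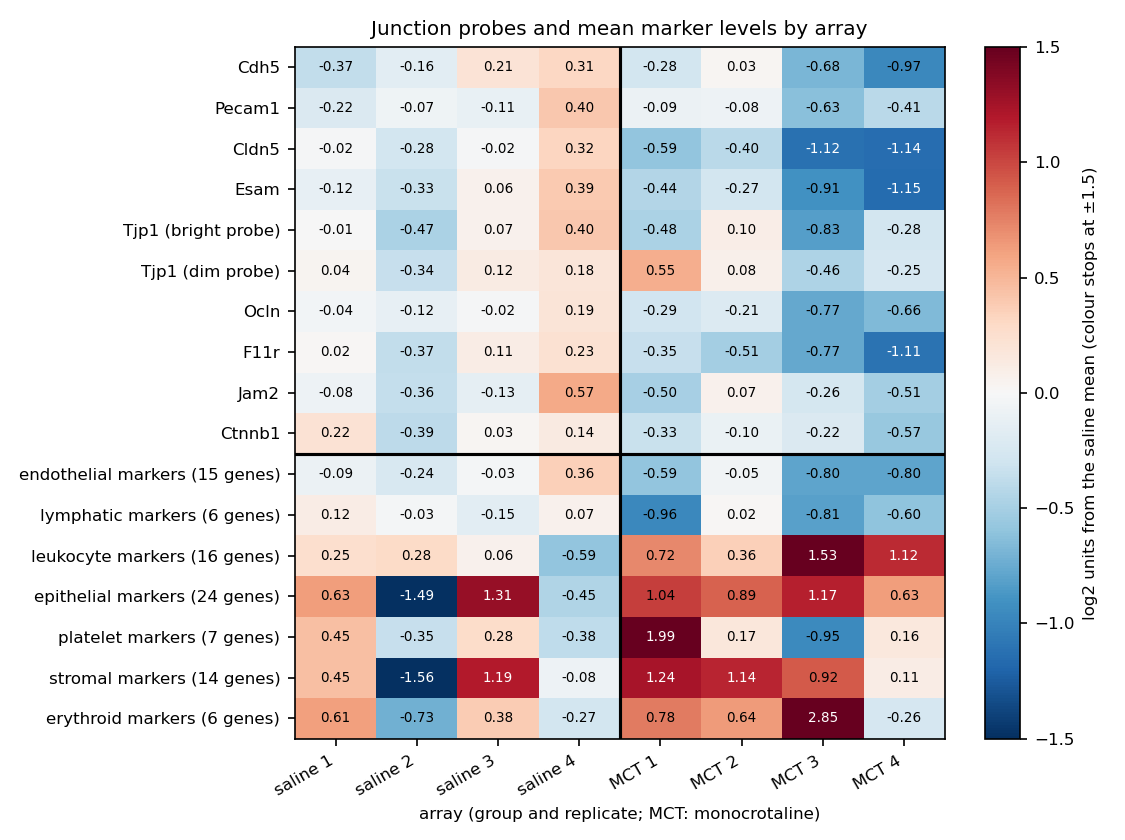
Distance from the saline mean in log2 units (colour and printed value) for the 10 junction probes (upper rows) and the mean level of 7 marker lists (lower rows) on each array. Each junction probe is lowest on monocrotaline (MCT) replicate 3 or 4, and the mean of the endothelial markers is lowest on both, at -0.80.

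Once each group's mean was taken away, all 45 pairs of junction probes had a positive Pearson r over the 8 arrays, from 0.19 (Pecam1 with Ctnnb1) to 0.97 (Cldn5 with Esam and with Ocln), with a median of 0.72. These values share arrays and scaling and are a description. The same share was not computed for pairs of other probes, so it does not set the junction genes apart. By the same measure, over 11426 other named genes, the genes most like Cldn5 were Med4, Get4 and Cdc42bpb (r = 0.993, 0.988 and 0.986). Those most like Ocln were Podxl, Slc43a3 and Rras (0.995, 0.99 and 0.99). Those most like Cdh5 were Ppib, Tmem218 and Slc30a5 (0.988, 0.985 and 0.984), and those most like F11r were Cmtm3, Fkbp10 and 9530082P21Rikl (0.989, 0.988 and 0.983). Being the highest of 11426 genes on 8 arrays, such r values can be high from the selection alone. The log2 fold change was -0.08 for Med4, -0.08 for Get4 and -0.44 for Cdc42bpb, against -0.81 for Cldn5.

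Markers of the endothelium as a whole had lower means too. The 15 measured endothelial markers were all well above background on 8 of 8 arrays, and none was a junction gene of the list above. Of these, 15 had a log2 fold change below 0, against 53.7% of all probes. Their median was -0.58 and 0 passed the test, while 8 were lower at an unadjusted p under 0.05, against 7.08% of all probes. Their mean stood at -0.59, -0.05, -0.80 and -0.80 from the saline mean on monocrotaline replicates 1 to 4 and at -0.09, -0.24, -0.03 and 0.36 on the saline replicates (p = 0.0857 by a two-sided exact permutation test, or 0.171 after adjustment over the 8 marker and S phase lists). Kdr, the main VEGF receptor, was at -0.15 ± 0.24 (log2 fold change ± SE), and Clec14a, an endothelial lectin, at -0.92 ± 0.24. The 6 lymphatic endothelial markers had a median of -0.52 and 0 calls, and Ccl21, a chemokine of lymphatic vessels, was at -0.64 ± 0.22.

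The junction genes were therefore set against those 15 endothelial markers array by array, a choice made after the values were seen. This scale moved the median log2 fold change of all probes from -0.02 to 0.53. On it Cldn5 was at -0.25 (95% interval -0.71 to 0.21), Esam at -0.13 (-0.61 to 0.34) and F11r at -0.13 (-0.65 to 0.40). Ocln stood at 0.07 (-0.40 to 0.55) and Cdh5 at 0.08 (-0.42 to 0.58), both with the sign turned. Pecam1 (0.25), Jam2 (0.26), Ctnnb1 (0.25) and Tjp1 (0.19 by the bright and 0.54 by the dim probe) turned too. No junction probe passed the test on this scale (limma adjusted p from 0.182 to 0.783), and 0 of 10 had an unadjusted p under 0.05. A difference between a junction gene and the endothelial markers was thus not detectable with these arrays. Such a ratio shows unequal change at most, not that a gene stayed level.

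**Figure D3:**
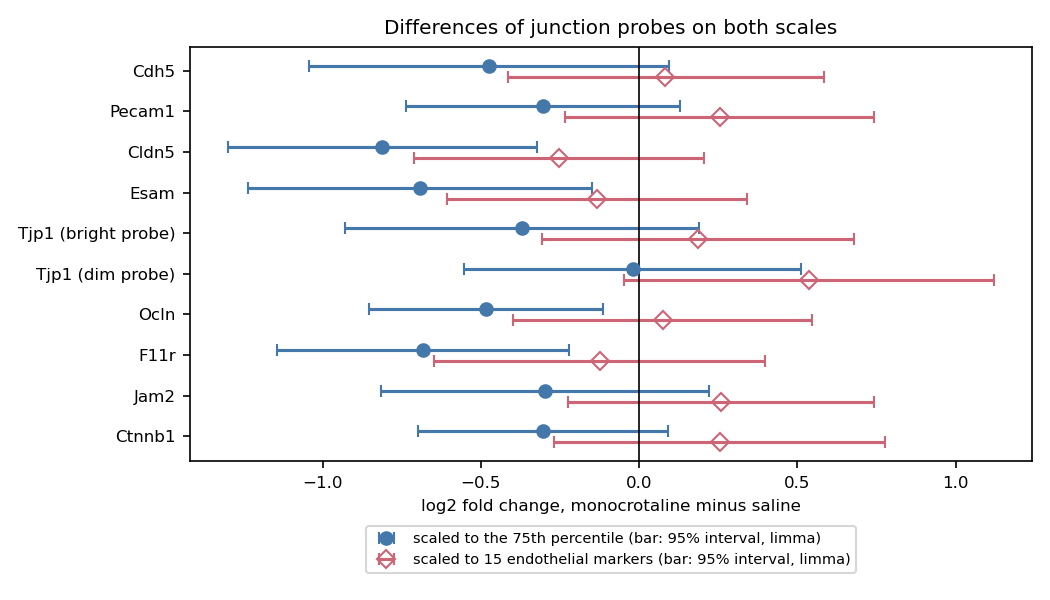
Log2 fold change of each junction probe, monocrotaline minus saline (horizontal axis), with 95% intervals from limma, scaled to each array's 75th percentile (filled circles) or to the mean of 15 endothelial markers (open diamonds). On the first scale the intervals of Cldn5, Esam, Ocln and F11r exclude 0, and on the second scale every interval includes 0.

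Markers of other cells that the capture could hold lay mostly above 0. Of 24 epithelial markers 22 had a log2 fold change above 0 (median 0.68), and 1 passed as higher, against 1.36% of all probes. It was Clca1 of mucous airway cells (3.35 ± 0.62, limma adjusted p = 0.0419). In the saline group just 2 rats gave a Clca1 signal well above background, and its saline mean was -7.18. The size of the Clca1 change is therefore uncertain. The mean of the 24 epithelial markers ran from -1.49 to 1.31 over the saline arrays and from 0.63 to 1.17 over the monocrotaline arrays. Ocln, F11r and Tjp1, which epithelia express too, had lower means after monocrotaline. Of the markers that define epithelium and leukocytes, Epcam was at 1.20 ± 1.13, Cdh1 at 1.14 ± 0.72, Sftpc at 0.30 ± 0.69 and Ptprc at 0.31 ± 0.39, all detected in both groups and none past the test. Of 16 leukocyte markers 14 were above 0 (median 0.91) and 3 passed as higher, against 1.36% of all probes. They were Cd247 (2.11 ± 0.34), Cd8b (1.67 ± 0.30) and Zap70 (1.66 ± 0.28), which T cells express, though not all of them alone. Cd3d, Cd3e and Cd3g of T cells were at 1.78, 1.77 and 1.90 and did not pass. The other leukocyte markers ran from -0.34 (Lyz2) to 1.04 (Itgam), with Csf1r at -0.12 and Cd68 at 0.03. The leukocyte mean was 1.53 and 1.12 from the saline mean on monocrotaline replicates 3 and 4, the arrays with the lowest junction values, and 0.72 and 0.36 on replicates 1 and 2 (p = 0.0286 by the same exact permutation test, 0.114 after adjustment). Of 7 platelet markers, with Pf4 at 0.90 ± 0.55, 6 were above 0, the median was 0.25 and 0 passed. The 14 stromal markers (median 0.92, Col1a2 at 1.06 and Msln at 1.63) and 6 erythroid markers (median 1.09, Hba-a1 at 0.52 and Ahsp at 1.30) had 0 calls. The part of these cells in the junction values was not tested. For comparison, all 14 S phase genes had a log2 fold change above 0 on the same arrays. Of these 14, 12 passed as higher, against 1.36% of all probes. The largest values were 3.36 (Ccne2), 2.93 (Ccne1) and 2.85 (Cdc6), and Ccne2 was well above background on only 2 of 4 saline arrays.

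Of 19 tested adherens junction genes beside those above 0 passed limma's test, 1 had an unadjusted p under 0.05, 10 were lower and 9 higher, and the median was -0.02. Jup, plakoglobin, which can take the place of beta-catenin on the cadherin tail, was at -0.53 ± 0.17 (log2 fold change ± SE, limma adjusted p = 0.241), and Actn4, an actin crosslinker, at -0.28 ± 0.18. Of 27 tested tight junction genes (32 had a probe) 0 passed, 13 were lower and 14 higher, and the median was 0.08. At an unadjusted p under 0.05, 1 was lower and 2 higher, against 7.08% and 6.72% of all probes. Some were dim: over the 21 genes well above background on all 8 arrays the median was -0.11. Cldn4, a claudin of epithelia that is also among the epithelial markers, read -5.08, -5.08, -4.76 and -5.81 after saline and 0.17, -4.41, -2.82 and -1.23 after monocrotaline. Its groups did not overlap, as for 8.54% of all probes in either direction, and its monocrotaline values spanned over 4 log2 units. Its log2 fold change was 3.11 ± 0.86 (SE, limma adjusted p = 0.159). It passed without monocrotaline replicate 2, its lowest array of that group (3.89, adjusted p = 0.0339). Prkci, a kinase of the polarity complex, was at -0.06 ± 0.27.

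Of 30 tested genes that signal to the junctions 0 passed, 20 were lower and 10 higher, and the median was -0.11. At an unadjusted p under 0.05, 6 were lower and 1 higher, against 7.08% and 6.72% of all probes. Of these 30, Kdr, Tek and Tie1 also count among the endothelial markers. Tiam1, an activator of the GTPase Rac, was at 1.32 ± 0.31 (limma adjusted p = 0.0984). Its groups did not overlap, as for 8.54% of all probes in either direction. It passed without monocrotaline replicate 2 (1.60, limma adjusted p = 0.0282). The saline mean of Tiam1 was -5.74, and it was well above background on only 3 of 4 saline arrays, so the size of its change is uncertain. The 6 lower genes were Tek, Rapgef3, Tie1, Rasip1, S1pr1 and Rhob, named after their values were seen. Tek and Tie1 are angiopoietin-system receptors of endothelium, Rapgef3 (EPAC1) and Rasip1 act with the GTPase Rap1 to tighten junctions, and S1pr1 is the receptor for sphingosine-1-phosphate, a barrier-keeping lipid. The log2 fold changes of the 6 genes were -0.91, -0.76, -0.69, -0.61, -0.48 and -0.47 in the order first named. A dimmer second probe of Rhob was at -0.32 ± 0.16 (SE). Whether the 6 genes share a role in the barrier was not tested.

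**Figure D4:**
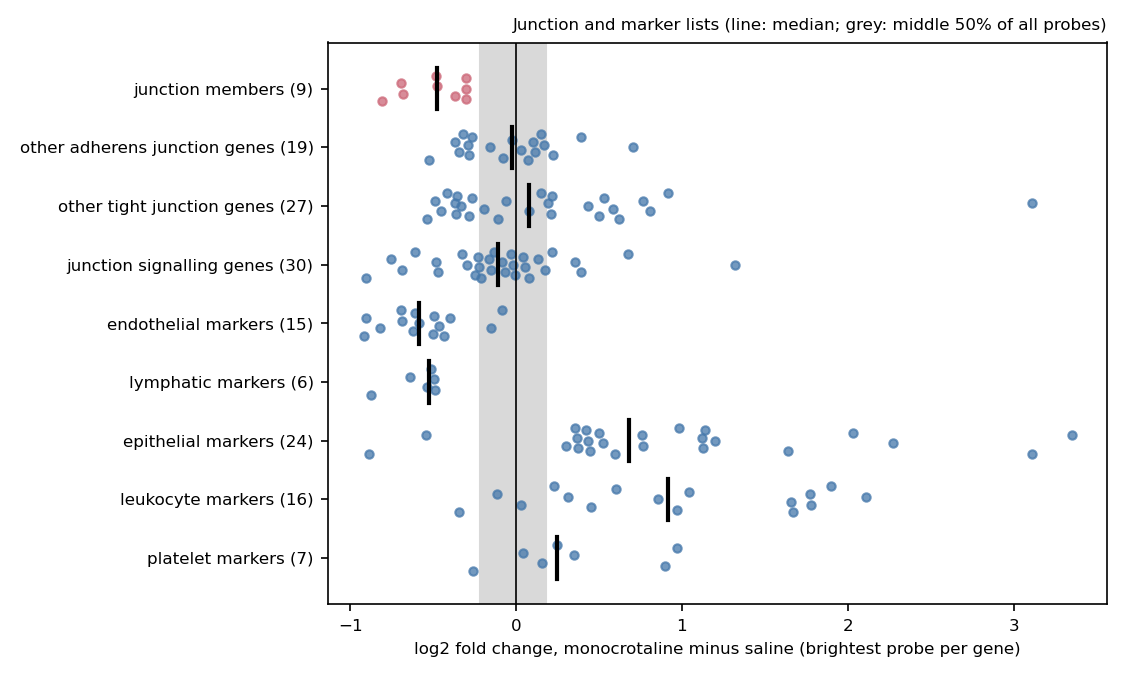
Log2 fold change (monocrotaline minus saline, horizontal axis) of each tested gene, by its brightest probe, for the junction genes and 8 other lists. Black lines are medians and the grey band holds the middle 50% of all probes. The junction genes (median -0.47) lie beside the endothelial (-0.58) and lymphatic markers (-0.52), and the other junction lists centre near 0.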

How the data were processed

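Total RNA from 8 samples, 10 ng each, was amplified, labelled with Cy3 and read on 1 slide, 1 array per rat. Agilent Feature Extraction 10.7.3.1 made the intensity columns, per the file headers, and subtracted background and spatial trend from the processed signal within each array, with no scaling across arrays. Flag columns hold other values (0 or 1). In the deposited value table a second log2 had been taken: raised as a power of 2, its values match log2 processed signals after quantile normalization (median absolute difference 9.89e-10). The submitters' processing notes list limma 3.6.9 and give no role for it.

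Outlier-flagged and control spots were left out, the spots of a probe averaged, log2 taken and each array's 75th percentile subtracted. Of 30367 probes 17 lost all spots on an array, and those well above background on at least 4 of 8 arrays were tested. RefSeq accessions (from a GRCr8 gene list) named 18006 probes with 15159 symbols. Monocrotaline was compared with saline per probe by linear models (R 4.3.3, limma 3.58.1), two-sided, with Benjamini-Hochberg adjustment over all probes. Levels of marker lists were compared by exact permutation over the 70 regroupings. Lists were counted by the brightest probe of a gene.

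The members, lists and tests were chosen with earlier results of these data known. All members were named. Of each other list, the rule named up to 3 called genes with the largest change or, with none called, the brightest gene and that with the lowest p. The likeness rule took the 3 genes with the highest group-centred correlation. Alternatives were normexp (offset 50) with percentile or quantile scaling, quantile and median scaling, the deposited table, other filters and probe rules, robust limma with a trend, weighted arrays, a replicate block, exact permutation per probe, leaving out each array or monocrotaline replicates 1 and 3, and scaling to endothelial markers. The models were tested on simulated data with independent noise. Of 100 probes given a log2 change of 1, 52 were called, and of 100 given a change of 2, 90 were, with 5 false calls. The largest junction difference, -0.81 for Cldn5, was smaller than either, so many changes of such a size would be missed. The design text gives 4 animals per group, and p-values measure the spread between these samples.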

Additional observations from a re-analysis of the deposited data

How the results depend on the processing

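The count of 0 junction probes passing limma's test held in all 23 alternatives, with 0 to 5 of them lower at an unadjusted p under 0.05 against 4. With 1 probe per gene or the mean of a gene's probes, 9 genes were tested in place of 10 probes. Leaving out 1 array at a time gave log2 fold changes of -0.948 to -0.701 for Cldn5, -0.805 to -0.542 for F11r, -0.833 to -0.538 for Esam and -0.576 to -0.388 for Ocln. It gave -0.642 to -0.309 for Cdh5, -0.379 to -0.17 for Pecam1, -0.423 to -0.108 for Jam2, -0.433 to -0.214 for Ctnnb1, -0.53 to -0.219 for the bright Tjp1 probe and -0.211 to 0.127 for the dim Tjp1 probe, whose sign turned on leaving out saline replicate 3 (0.020), saline replicate 4 (0.038), monocrotaline replicate 3 (0.127) or monocrotaline replicate 4 (0.056). Scaling to the endothelial markers, added after seeing the data, reversed Cdh5 (0.083), Pecam1 (0.254), Ocln (0.074), Jam2 (0.259), Ctnnb1 (0.254) and Tjp1 (0.187 and 0.537), since the markers themselves were lower. It called 533 probes higher and 0 lower.

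Leaving out 1 array gave 0 to 1 call among the other tight junction genes and 0 to 1 among the junction signalling genes, and 0 to 0 among the other adherens junction genes. Over all probes the calls were 404 higher and 59 lower with array weights, and 62 and 1 without monocrotaline replicates 1 and 3, where Cldn5 was at -0.771, F11r at -0.807 and the bright Tjp1 probe at -0.089. With the replicate number, which groups the arrays as the slide columns do, as a replicate block, 0 junction probes and 0 of all probes were called, and limma gave Cldn5 an unadjusted p of 0.0226 and F11r one of 0.0334. Same-numbered arrays did not deviate together (r = -0.01, -0.24, -0.33 and -0.19). These values cannot settle whether same-numbered samples were handled together. No depth is known for arrays, and all junction probes lay well above background.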
